A study of Mus musculus with 18 samples.

Results

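The NF-kB subunits and inhibitors are 10 genes of the 53465 in the deposited gene counts, taken by symbol: Nfkb1, Rela, Rel, Nfkb2 and Relb, which encode the DNA-binding subunits, and Nfkbia, Nfkbie, Bcl3, Nfkbiz and Tnfaip3, which encode proteins that restrain or redirect them. All 10 had counts in every one of the 18 libraries and passed the filter on low counts in every comparison. Each was tested singly with edgeR's quasi-likelihood test, with p-values adjusted over all genes, and joint movement of the 10 was not tested. In macrophages, Nfkbiz and Tnfaip3 were lower with rIL-4 and with rIL-13 than with PBS, at adjusted p from 0.0121 to 0.0450. Nfkb1 was 1.99-fold higher with rIL-4, and the other subunits passed no test. Each of these calls was lost when certain single libraries were left out. In microglia, Nfkbiz was 2.94-fold lower with rIL-4 at an adjusted p of 0.0501, just outside the threshold of 0.05. No member was called for a difference between the cell types in its cytokine response.

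The libraries came from adult female C57BL/6J mice of 8 to 10 weeks with a contusion of the thoracic spinal cord (SCI). At 48 h after SCI, 3 mice received PBS, 3 received 100 ng of rIL-13 and 3 received 100 ng of rIL-4 into the cord. Microglia and macrophages were sorted 24 h later from the same cord as CD45low and CD45high cells, all positive for CD11b and F4/80, so that 9 mice gave 6 groups of 3 libraries. All groups, PBS included, carried the injury and the injection, and no uninjured cord was analysed here. The PBS libraries are shared by the rIL-4 and the rIL-13 comparisons.

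NF-kB dimers are held in the cytoplasm by inhibitors until receptors such as those for TNF, IL-1 and microbial products switch on the IKK kinases. In the canonical pathway, p50 (from Nfkb1), RelA and c-Rel are freed when IkBα (Nfkbia) or IkBε (Nfkbie) is degraded. In the noncanonical pathway, p100 (Nfkb2) is processed to p52, the partner of RelB. IkBζ (Nfkbiz) and Bcl-3 are nuclear members of the inhibitor family that bind p50 or p52 on DNA and can raise as well as repress transcription. A20 (Tnfaip3) edits ubiquitin chains and stops signalling above IKK. Several of these genes are textbook NF-kB targets, and in microglia and macrophages the pathway is best known for inducing inflammatory cytokines.

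Library totals lay between 35961305 and 45849829 counts, and levels are given as normalized counts, the counts divided by a size factor for each library. The microglial markers Tmem119 and P2ry12 were higher in the PBS microglia than in the PBS macrophages, at 15265 to 25603 against 4725 to 8268 normalized counts for Tmem119, and Ccr2 of monocyte-derived cells was higher in the macrophages, at 7202 to 9633 against 411 to 1142. In the rIL-4 microglia, Tmem119 was at 3164 to 5980, below the PBS macrophages' highest library. These libraries also held 6.36% to 12.2% of their counts in mitochondrial protein genes, against 2.18% to 3.53% in the other microglia and 0.532% to 1.41% in macrophages. Among macrophages, the rIL-4 libraries held 0.836% to 1.41% and the others 0.532% to 0.745%. One macrophage library, that of rIL-13 mouse 6, stood apart in the summed level of 9 neutrophil markers, at 107986 normalized counts against 5994 to 51755 in the other macrophage libraries. In macrophages none of the 9 was at 0 throughout a group, while in microglia Mpo was at 0 in all 9 libraries and Ly6g was at 0 to 61.7 normalized counts. The sort required F4/80, which neutrophils are known to lack, and the source of these markers was not tested.

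Expressed per kilobase of exon, as TPM, the share of all transcripts scaled by the union of a gene's exons, the members spanned a wide range. Nfkbia was the highest, at 276 ± 17.0 TPM (SD, n = 3) in PBS microglia and 732 ± 141 TPM in PBS macrophages. Rela was the highest subunit, at 76.8 ± 2.88 TPM in PBS microglia and 64.5 ± 3.44 TPM in PBS macrophages. The other 8 genes in PBS microglia lay close together, from 7.76 ± 1.54 TPM for Nfkb1 to 17.9 ± 3.05 TPM for Nfkbiz, and most neighbours in that order did not differ beyond their SDs. In PBS macrophages, Tnfaip3 at 73.4 ± 17.9 TPM and Nfkbiz at 63.1 ± 19.7 TPM were level with Rela within their SDs. Below them came Nfkb2 at 20.1 ± 3.84 TPM, Nfkbie at 16.2 ± 0.453 TPM, Rel at 14.6 ± 2.48 TPM, Relb at 12.4 ± 0.753 TPM, Bcl3 at 11.3 ± 2.70 TPM and Nfkb1 at 5.10 ± 0.988 TPM. Of the 4 highest genes, 3 were inhibitors in PBS macrophages and 2 in PBS microglia.

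**Figure D1:**
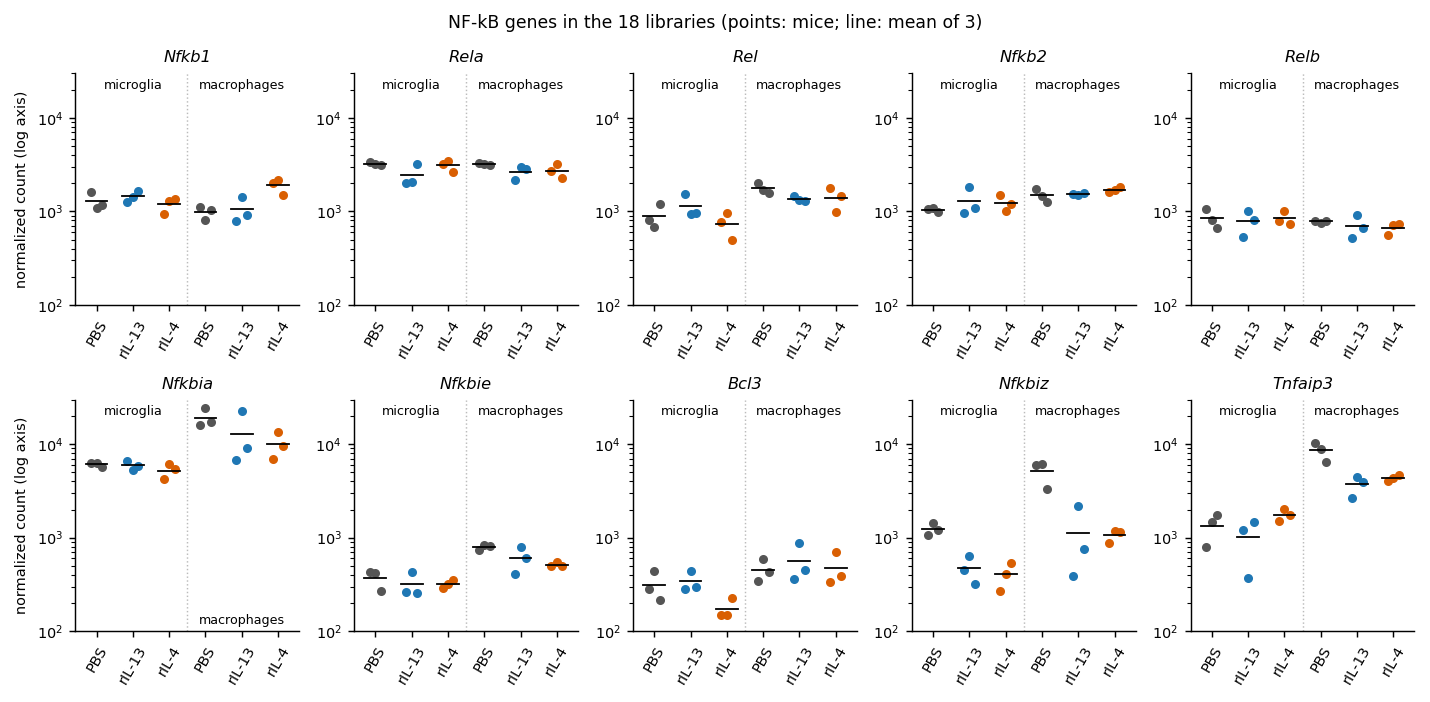
Normalized counts (log axis) of the 10 genes in each library, with microglia on the left and macrophages on the right of each panel; points are mice and lines are means of 3. The 3 PBS macrophage libraries of Nfkbiz, at 3306 to 6134, and of Tnfaip3, at 6497 to 10264, lie above every other library of the same gene, while Rela lies between 2030 and 3479 in all 18.

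The promoters of these genes were inspected for the kB consensus, the DNA word that NF-kB dimers bind. RefSeq promoters (GRCm38.p6, 250 bases before to 50 after a start) were held for 7 of the 10 genes, Rela, Rel, Nfkb2, Nfkbia, Nfkbie, Bcl3 and Tnfaip3, in 10 entries. Searched on both strands, the consensus was found in 8 of the 10 entries and in 6 of the 7 genes, all but Rela. It is in 8.46% of all 32851 promoter entries and in 9.55% of the 27025 genes with an entry. One pair of entries, of Nfkb2, overlaps, and the match is a description of these letters rather than of a bound site. The 250 bases before the start are shown for Nfkbia (chr12:55492648-55492897, minus strand), the highest member, and for Rel (chr11:23770970-23771219, minus strand), whose PBS level differed between the cell types; capitals mark the kB matches, which in Rel are 2 overlapping ones.
Nfkbia: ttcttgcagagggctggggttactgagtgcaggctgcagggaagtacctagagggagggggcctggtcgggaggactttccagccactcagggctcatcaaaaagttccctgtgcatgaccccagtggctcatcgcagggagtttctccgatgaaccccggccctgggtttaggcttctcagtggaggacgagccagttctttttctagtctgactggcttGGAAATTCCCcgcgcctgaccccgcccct
Rel: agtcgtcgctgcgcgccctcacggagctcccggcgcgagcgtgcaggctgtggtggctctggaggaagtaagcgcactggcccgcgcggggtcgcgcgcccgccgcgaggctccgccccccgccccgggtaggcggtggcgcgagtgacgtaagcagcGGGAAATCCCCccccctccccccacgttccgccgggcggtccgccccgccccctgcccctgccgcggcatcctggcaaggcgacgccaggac

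For the other genes with a match, a window of 30 bases with the match in capitals shows how the words differ between members. The Tnfaip3 entry that starts at base 19015410 of chromosome 10 holds a pair, at -125 and -12 from the start (chr10:19015516-19015545 and chr10:19015403-19015432, minus strand). The match in Nfkbie lies at -106 (chr17:45555584-45555613, plus strand), that in Bcl3 at 3 bases past the start (chr7:19822734-19822763, minus strand), and the nearest to the first Nfkb2 start at -11 (chr19:46304716-46304745, plus strand). The same Nfkb2 entry has a further pair of overlapping matches at -39 and -38.
Tnfaip3 distal: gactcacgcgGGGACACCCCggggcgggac
Tnfaip3 proximal: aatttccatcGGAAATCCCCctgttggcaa
Nfkbie: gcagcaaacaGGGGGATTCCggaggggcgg
Bcl3: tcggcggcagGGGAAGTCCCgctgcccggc
Nfkb2: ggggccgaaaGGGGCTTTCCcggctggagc
The word TTCNNNNGAA, of the spacing that STAT6 downstream of IL-4 and IL-13 receptors prefers, was in 6.95% of all entries on either strand and, among these genes, in the Tnfaip3 entry at -242.

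With rIL-4, macrophages showed lower levels of Nfkbiz and Tnfaip3 and a higher level of Nfkb1. Nfkbiz (ENSMUSG00000035356.16, chr16:55811375-55838899, minus strand) was at 5938, 6134 and 3306 normalized counts in the 3 PBS macrophage libraries, and at 888, 1193 and 1139 in those with rIL-4. Every PBS library lay above every rIL-4 library. Such separations, here and below, are descriptions, since the share of all genes without overlap was not counted. The log2 fold change was -2.20 ± 0.52 (SE), 4.60-fold lower, with an adjusted p of 0.0186. Tnfaip3 (ENSMUSG00000019850.11, chr10:19000910-19015657, minus strand) was at 10264, 8962 and 6497 with PBS, and at 4080, 4313 and 4670 with rIL-4. It was 1.90-fold lower, with a log2 fold change of -0.92 ± 0.21 and an adjusted p of 0.0158, and its rIL-4 libraries lay within a narrow range below all PBS libraries.

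Nfkb1 (ENSMUSG00000028163.17, chr3:135584655-135691547, minus strand) moved the other way. It was at 1128, 816 and 1033 normalized counts with PBS and at 2033, 2182 and 1514 with rIL-4, a log2 fold change of 1.00 ± 0.23 with an adjusted p of 0.0184. All rIL-4 libraries were above all PBS libraries. Nfkbie (ENSMUSG00000023947.7, chr17:45555703-45563169, plus strand) was at 744, 844 and 807 with PBS and at 496, 548 and 501 with rIL-4. Its groups did not overlap, but its log2 fold change of -0.58 ± 0.21 had an unadjusted p of 0.0210 and an adjusted p of 0.101, or 0.0301 with the 6 compared libraries alone. Nfkbia (ENSMUSG00000021025.8, chr12:55489410-55492647, minus strand) was at 16218, 24131 and 17183 with PBS and at 6889, 13656 and 9520 with rIL-4, without overlap, and its log2 fold change of -0.89 ± 0.41 had an adjusted p of 0.188.

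The remaining 5 genes, Rela, Rel, Nfkb2, Relb and Bcl3, had log2 fold changes from -0.28 to 0.24 with rIL-4 and passed no test. In all, 3 of the 10 genes were called, against 14.0% of the 13606 genes tested, and 2 of them were lower, against 7.20% of all genes. The median log2 fold change of the 10 was -0.23, and that of all genes 0.02. Each of the 3 calls was lost without certain single libraries. Nfkb1 had an adjusted p of 0.0740 without PBS mouse 2, 0.0596 without PBS mouse 3 and 0.0507 without rIL-4 mouse 9. Nfkbiz had 0.0557 without PBS mouse 1, 0.0572 without PBS mouse 2, and 0.0619 and 0.0638 when rIL-4 mouse 8 or 10 was left out. Tnfaip3 had 0.0615 without PBS mouse 1, 0.0530 without PBS mouse 2, 0.0522 without rIL-4 mouse 8, and 0.207 in a model of all 18 libraries. Every one of these fits kept the sign. Markers of other cells moved with the same comparison: all 8 microglial markers were called lower in the rIL-4 macrophages, with a median log2 fold change of -3.95, and Tmem119 was at 440 to 564 normalized counts against 4725 to 8268 with PBS. Of the 9 neutrophil markers, 2 were called lower and 0 higher, with a median of -1.27. Of the 6 endothelial markers, Pecam1 and Flt1 were called higher and Kdr and Cldn5 lower, and their sum was 9227 to 16510 normalized counts against 1962 to 2534 with PBS. Of 4 astrocyte markers tested, Gja1 was called higher, and the sum over the 5 listed was 2119 to 18674 against 396 to 479. Of 6 fibroblast and pericyte markers tested, 3 were called lower, with a median of -3.15, and of 5 oligodendrocyte markers tested 1 was lower. The mitochondrial share was 0.836% to 1.41% with rIL-4 against 0.532% to 0.745% with PBS. The part of these markers and of that share in the values of the 10 genes was not tested.

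With rIL-13, macrophages showed lower Nfkbiz and Tnfaip3, and Nfkb1 passed no test. Nfkbiz was at 388, 2193 and 758 normalized counts in rIL-13 mice 5, 6 and 7, which gave a log2 fold change of -2.18 ± 0.52 against PBS, 4.53-fold lower, with an adjusted p of 0.0450. Tnfaip3 was at 2683, 4505 and 3972, 2.26-fold lower, with a log2 fold change of -1.18 ± 0.21 and an adjusted p of 0.0121. No rIL-13 library of either gene reached the lowest PBS library. Nfkb1 was at 792, 1443 and 918, with a log2 fold change of 0.11 ± 0.23.

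The library of rIL-13 mouse 6, which had the highest neutrophil markers, was also the highest of its group for 8 of the 10 genes, all but Rel and Nfkb2. For Nfkbiz, mouse 6 was at 2193 and the next library at 758. Nfkbia was at 6765 in mouse 5, 22374 in mouse 6 and 9087 in mouse 7, so that mouse 6 lay among the PBS libraries. Bcl3 (ENSMUSG00000053175.17, chr7:19808462-19822770, minus strand), the nuclear partner of p50 and p52, was at 358, 881 and 454, above all PBS libraries of 348, 592 and 427 in mouse 6 only. The part of other cells in that library was not tested.

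With rIL-13, 2 of the 10 genes were called against 4.19% of the 13606 genes tested, both lower against 1.66% of all genes. The other 8 had log2 fold changes from -0.57 for Nfkbia to 0.33 for Bcl3, and the median of the 10 was -0.30 where all genes had 0.00. Of the 8 microglial markers, 3 were called lower in the rIL-13 macrophages, and Tmem119 was at 1884 to 2636. Of 6 endothelial markers, 2 were called higher and 1 lower, with a sum of 5771 to 8483 normalized counts against 1962 to 2534 with PBS. Of 4 astrocyte markers tested, 1 was called higher, and the sum over the 5 listed was 2011 to 15210 against 396 to 479. Of 9 neutrophil markers 0 were called, and of 5 oligodendrocyte markers tested 1 was lower. Their part in the values of the 10 genes was not tested. Without mouse 6, the count of members called was 3, since Nfkbia was then called too, and Nfkbiz had a log2 fold change of -3.12 and an adjusted p of 0.00157. Nfkbiz was not called when any other of the 6 compared libraries was left out, with an adjusted p of 0.123 without PBS mouse 1, 0.135 without PBS mouse 2, 0.0703 without PBS mouse 3, 0.0688 without rIL-13 mouse 5 and 0.144 without rIL-13 mouse 7. It had 0.0766 with the 6 compared libraries alone. Tnfaip3 had 0.0522 without PBS mouse 1, 0.0505 without PBS mouse 2 and 0.197 in a model of all 18 libraries, all with the sign kept.

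**Figure D2:**
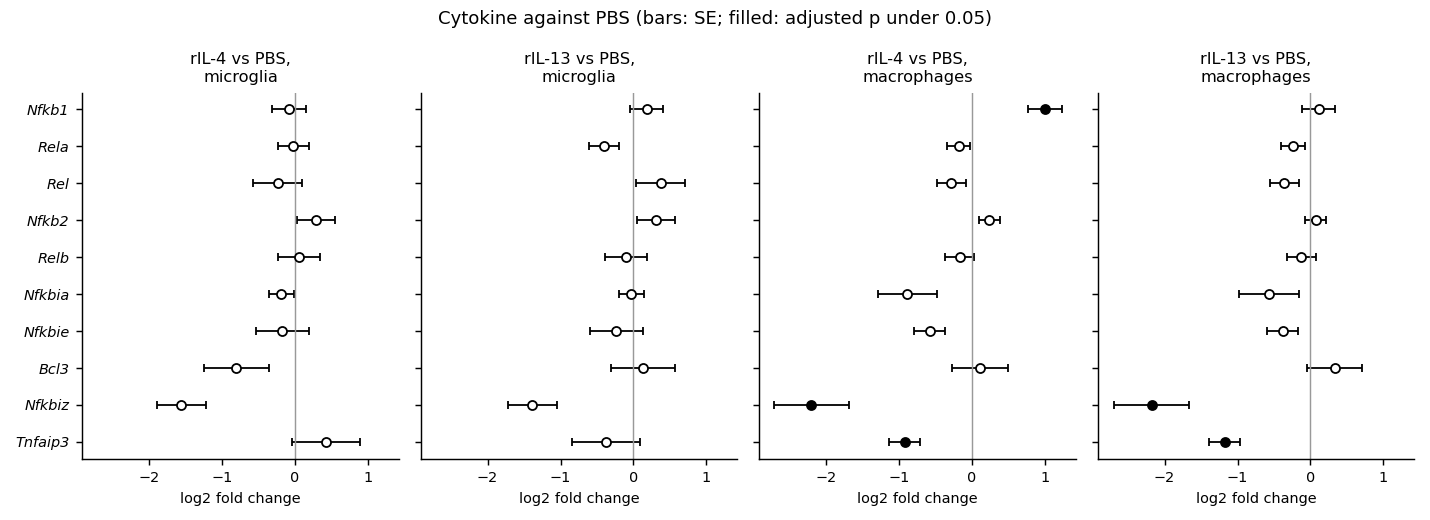
Log2 fold change against PBS (x axis, bars are SE) of the 10 genes (y axis) for each cytokine and cell type, 3 mice a group; filled points have an adjusted p under 0.05. Nfkbiz lies between -2.20 and -1.39 in all 4 panels, whereas the filled Tnfaip3 points of -0.92 and -1.18 and the filled Nfkb1 point of 1.00 are in the macrophage panels.

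Set against each other, rIL-4 and rIL-13 macrophages differed by at most 0.32 on the log2 scale for 9 of the 10 genes. Nfkb1 was the exception, higher with rIL-4 by 0.88 ± 0.23, 1.85-fold, with an unadjusted p of 0.00331 and an adjusted p of 0.172. The lowest rIL-4 library, at 1514, was above the highest rIL-13 library, at 1443. No member was called by edgeR, which called 0.250% of all genes, and 1 had an unadjusted p under 0.05, as 11.1% of all genes had. DESeq2's Wald test called 1, Nfkb1, at an adjusted p of 0.0293, and 3.09% of all genes. Nfkb1 was also called, at an adjusted p of 0.0458, when no filter on low counts was used.

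In microglia, Nfkbiz was the member with the largest difference from PBS under either cytokine. It was at 1058, 1419 and 1218 normalized counts with PBS, at 272, 411 and 541 with rIL-4 and at 447, 643 and 321 with rIL-13. Neither cytokine group overlapped the PBS group, while the cytokine groups overlapped each other. With rIL-4 the log2 fold change was -1.56 ± 0.34, 2.94-fold lower, and with rIL-13 it was -1.39 ± 0.34, 2.62-fold lower, with an adjusted p of 0.228. DESeq2 called both, at adjusted p of 0.00147 and 0.0198. With rIL-4, edgeR called Nfkbiz with genes of a mean of at least 50 counts, at 0.0394, and with the 6 compared libraries, at 0.0468, but not in a model of all 18 libraries, at 0.0583. It was called in 0 of 6 fits that left out 1 library, with adjusted p from 0.0643 to 0.176 for rIL-4 and from 0.201 to 0.720 for rIL-13.

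Tnfaip3 in microglia was at 792, 1489 and 1743 with PBS, at 1507, 2031 and 1751 with rIL-4 and at 1205, 372 and 1478 with rIL-13. Both cytokine groups overlapped PBS. Every rIL-4 library lay above every rIL-13 library, and that difference of 0.81 ± 0.47 on the log2 scale had an unadjusted p of 0.120 and an adjusted p of 0.596. The 372 was that of rIL-13 mouse 6, whose microglia library had a summed level of 8 fibroblast and pericyte markers of 296972 normalized counts against 8111 to 128724 in the other microglia libraries. Nfkb1 was at 1610, 1086 and 1166 with PBS, 935, 1278 and 1353 with rIL-4, and 1249, 1443 and 1664 with rIL-13. Its cytokine groups overlapped PBS and each other. Nfkbia was steady, at 5717 to 6301 with PBS, 4213 to 6088 with rIL-4 and 5346 to 6626 with rIL-13.

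Among the rest, Bcl3 was the lowest with rIL-4, at 148, 151 and 226 against 282, 444 and 215 with PBS, a log2 fold change of -0.80 ± 0.44 that passed no test. Leaving out Nfkbiz, the range in microglia was -0.80 to 0.43 with rIL-4, -0.40 to 0.37 with rIL-13 and -0.93 to 0.81 between rIL-4 and rIL-13. The edgeR test called 0 members with rIL-4, 0 with rIL-13 and 0 between them, where 2.22%, 0.366% and 0.0385% of the 15566 genes tested were called. At an unadjusted p under 0.05 there were 1, 1 and 0, where 16.4%, 7.76% and 11.4% of all genes passed, so that these counts are near or below the share of all genes. By DESeq2 there were also 1, 1 and 0, against 7.81%, 2.07% and 3.58% of all genes. The mitochondrial share, highest in the rIL-4 libraries, moved with that group here as it did in macrophages. All 8 microglial and all 8 fibroblast and pericyte markers had log2 fold changes below 0 with rIL-4, with medians of -1.49 and -1.75, of which 2 and 1 were called. With rIL-13, all 8 microglial markers were below 0 too, with a median of -0.95. Of 7 markers of monocyte-derived macrophages, 2 were called higher with rIL-4, Chil3 and Ms4a7, and 1 with rIL-13, Chil3, which IL-4 is also known to induce. Their sum was 7740 to 23139 normalized counts with PBS, 461832 to 820960 with rIL-4 and 188675 to 277849 with rIL-13. The rise was that of Chil3, at 2006 to 10129 with PBS, 455080 to 811266 with rIL-4 and 182026 to 270796 with rIL-13. Of the 7, 2 had log2 fold changes below 0 with rIL-4 and 3 with rIL-13. F13a1 was at 4174 to 10449 with PBS and 2967 to 3714 with rIL-4. Of 4 dendritic cell markers tested, Ccr7 was called higher with rIL-4. The part of the mitochondrial share and of these markers in the values of the 10 genes was not tested.

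After PBS, microglia had lower levels than macrophages of 4 of the 5 inhibitors, all but Bcl3, and of Rel and Nfkb2. Tnfaip3 was 6.66-fold lower, with a log2 fold change of -2.73 ± 0.30 and an adjusted p of 0.000172. Nfkbiz was 4.34-fold lower, at -2.12 ± 0.24 with an adjusted p of 0.000212, and Nfkbia 3.28-fold lower, at -1.71 ± 0.16 with an adjusted p of 7.38e-05. For all 3, the highest microglia library lay below the lowest macrophage library, with 1743 against 6497, 1419 against 3306 and 6301 against 16218.

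Nfkbie was at 433, 418 and 272 in PBS microglia against 744, 844 and 807 in PBS macrophages, 2.23-fold lower, with a log2 fold change of -1.15 ± 0.22 and an adjusted p of 0.00313. Rel (ENSMUSG00000020275.9, chr11:23736847-23770970, minus strand), which encodes c-Rel, was at 813, 679 and 1187 against 2034, 1706 and 1557, 2.06-fold lower, with -1.04 ± 0.23 and an adjusted p of 0.00685. Nfkb2 (ENSMUSG00000025225.14, chr19:46304320-46312385, plus strand), the p100 gene, was at 1056, 1081 and 983 against 1739, 1476 and 1254, 1.49-fold lower, with -0.58 ± 0.17 and an adjusted p of 0.0217. None of these groups overlapped, and the share of all genes without overlap was not counted.

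Rela (ENSMUSG00000024927.7, chr19:5637483-5648130, plus strand) and Relb (ENSMUSG00000002983.17, chr7:19606217-19629438, minus strand) were level between the cell types. After PBS, Rela was at 3398, 3209 and 3116 in microglia and at 3280, 3216 and 3127 in macrophages, and Relb at 1063, 802 and 657 against 795, 756 and 790. Their log2 fold changes of -0.05 ± 0.11 and 0.05 ± 0.20 passed no test. Nfkb1, at 0.31 ± 0.21, and Bcl3, at -0.60 ± 0.33, passed none either.

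After PBS, 6 of the 10 genes were called, against 40.9% of the 14715 genes tested, and all 6 were lower in microglia, against 16.3% of all genes. The median log2 fold change of the 10 was -0.82 where all genes had 0.04. Nfkb2 lost its call without the macrophages of PBS mouse 1, at an adjusted p of 0.0656, without those of PBS mouse 2, at 0.0573, and in a model of all 18 libraries, at 0.0671. Bcl3 was called as well without the microglia of PBS mouse 2. The other 5 kept their calls in all these fits. Neutrophil markers differed the same way, with 6 of the 7 tested called lower in PBS microglia, a median log2 fold change of -3.74 and a sum over the 9 of 2261 to 3227 normalized counts against 29192 to 51755. Their part in these differences was not tested. Fewer cells of a type and less RNA per cell cannot be told apart in such sorted pools.

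**Figure D3:**
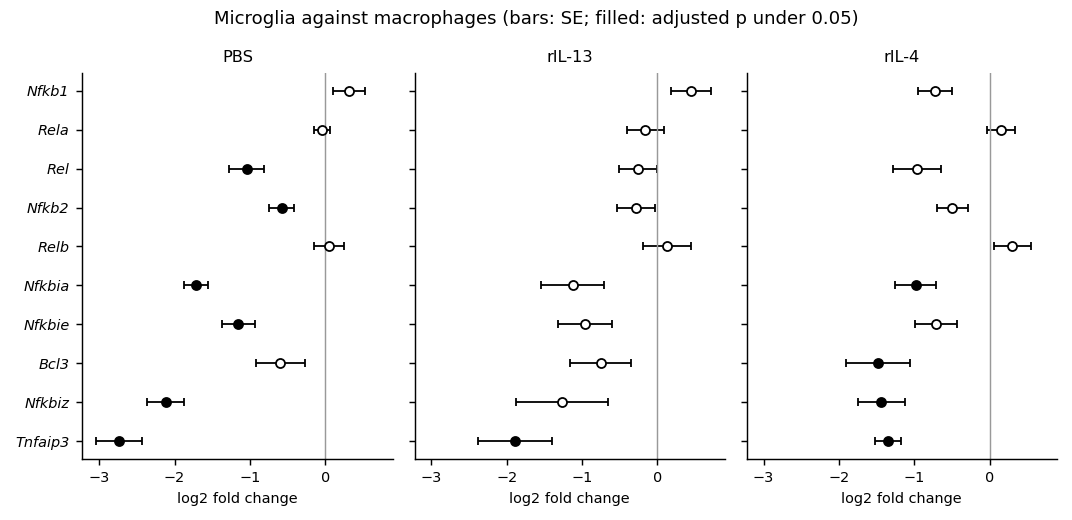
Log2 fold change of microglia against macrophages (x axis, bars are SE) of the 10 genes (y axis) after PBS, rIL-13 and rIL-4, 3 mice a group; filled points have an adjusted p under 0.05. Values below 0 are lower in microglia: 6 points are filled after PBS, 1 after rIL-13 and 4 after rIL-4, and Rela and Relb lie within 0.30 of 0 in all panels.

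After rIL-13, the cell types differed significantly in Tnfaip3 alone among the 10. In microglia it was 3.71-fold lower, at -1.89 ± 0.49 on the log2 scale with an adjusted p of 0.0251. Nfkbia, at -1.13 ± 0.42, and Nfkbie, at -0.96 ± 0.36, had unadjusted p of 0.0292 and 0.0300 and adjusted p of 0.0884 and 0.0901. The background was 26.7% of the 13906 genes, and 9.46% for genes lower in microglia, and 1 of 10 is near the share of genes called lower. The single call depended on macrophage mouse 6 and mouse 7, without which Tnfaip3 had an adjusted p of 0.0811 and 0.0831. Nfkbie was called at 0.0395 without the microglia of mouse 6, and Nfkbia at 0.0435 without the macrophages of mouse 5, where its log2 fold change was -1.45. Without the macrophages of mouse 6 that of Nfkbia was -0.48, with an adjusted p of 0.179. In a model of all 18 libraries 4 genes were called, with Nfkbia, Nfkbie and Nfkbiz added, and DESeq2 called 2, with Nfkbia added, against 33.1% of all genes. Of 8 neutrophil markers tested, 3 were called lower in microglia, with a median log2 fold change of -4.11. All 8 fibroblast and pericyte and all 6 endothelial markers were called higher. The part of these markers in the cell type differences was not tested.

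After rIL-4, 4 genes were called, all lower in microglia, where 23.4% of the 13576 genes were called and 9.97% were called lower. Tnfaip3 was 2.54-fold lower, at -1.35 ± 0.17 with an adjusted p of 0.00133, and Nfkbiz 2.71-fold lower, at -1.44 ± 0.31 with an adjusted p of 0.0135. Bcl3 was at 148, 151 and 226 in microglia and at 333, 704 and 390 in macrophages, 2.80-fold lower, at -1.48 ± 0.43 with an adjusted p of 0.0409. Nfkbia was 1.98-fold lower, at -0.98 ± 0.27 with an adjusted p of 0.0351. Of 8 neutrophil markers tested, 4 were called lower in microglia, and all 8 fibroblast and pericyte and all 6 endothelial markers were called higher. The mitochondrial share was 6.36% to 12.2% in these microglia and 0.836% to 1.41% in these macrophages. The part of the markers and of this share in the calls was not tested.

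Nfkb1 was higher in the rIL-4 macrophages than in the rIL-4 microglia of the same mice, at 2033, 2182 and 1514 against 935, 1278 and 1353, without overlap, and its log2 fold change of -0.72 ± 0.22 had an adjusted p of 0.0543. Rel at -0.96 ± 0.32, Nfkb2 at -0.50 ± 0.21 and Nfkbie at -0.71 ± 0.27 had unadjusted p of 0.0176, 0.0442 and 0.0332. With the mouse as a block, which pairs the 2 cell types of a cord, Bcl3 was not called after rIL-4, at an adjusted p of 0.0865, and 3 genes were. DESeq2 and a model of all 18 libraries each called Nfkb1 and Rel in addition, where DESeq2 called 29.2% of all genes.

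Only Tnfaip3 of the 4 kept its call after rIL-4 when each library was left out in turn. Nfkbiz had an adjusted p of 0.0541 without the macrophages of mouse 9 and 0.0699 without those of mouse 10. Nfkbia had 0.0894, 0.0519 and 0.0681 without the microglia of mouse 8, 9 and 10, and 0.0943 and 0.0994 without the macrophages of mouse 9 and 10. Bcl3 had 0.0751 and 0.0856 without the microglia of mouse 8 and 9, and 0.0660, 0.179 and 0.106 without the macrophages of mouse 8, 9 and 10, and it had 0.0516 with no filter on low counts. Nfkb1 had 0.0492 without the microglia of mouse 10.

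An interaction term in a model of all 18 libraries compared the cytokine responses of microglia and macrophages. For rIL-4 against PBS, the microglial change in Nfkb1 minus the macrophage change was -1.10 ± 0.34 on the log2 scale, with an unadjusted p of 0.00531 and an adjusted p of 0.166. For Tnfaip3 it was 1.33 ± 0.54, with an unadjusted p of 0.0252 and an adjusted p of 0.310. For rIL-4 against rIL-13, Nfkb1 again had the lowest p, with a difference of -1.17 ± 0.34 and an adjusted p of 0.295. Nfkbiz differed by 0.62 ± 0.65 for rIL-4 and by 0.79 ± 0.65 for rIL-13, so that the larger fold changes in macrophages were within 2 SE of those in microglia.

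No member was called in these interactions by edgeR, against 0.992% of the 16535 genes for rIL-4 against PBS, 0.0242% for rIL-13 against PBS and 0.139% for rIL-4 against rIL-13. DESeq2 called none either, against 4.17%, 0.931% and 1.81% of all genes in the same order. At an unadjusted p under 0.05 there were 2, 0 and 1, near the 12.4%, 5.83% and 10.0% of all genes. The lower Tnfaip3 of macrophages under rIL-4 is therefore not shown to be particular to macrophages, nor is the higher Nfkb1.

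Immediate early genes, such as Fos, Jun and Egr1, are also raised when cells are dissociated. Their summed normalized count over 14 genes was 203350 to 228474 in PBS macrophages, 133391 to 172462 with rIL-4, and 106815, 214687 and 142689 in rIL-13 mice 5, 6 and 7. In microglia it was 52344 to 62712 with PBS, 30005 to 46954 with rIL-4 and 28503 to 37046 with rIL-13. Among macrophages, the order of these sums put PBS and rIL-13 mouse 6 at the top, as did the order of Nfkbia and of Nfkbiz. In microglia, the sums of both cytokine groups lay below those of PBS, as did Nfkbiz, while both cytokine groups overlapped PBS for Nfkbia and Tnfaip3. Microglia against macrophages, 13 of the 14 were called lower after PBS, 12 after rIL-13 and 13 after rIL-4, where 16.3%, 9.46% and 9.97% of all genes were, with medians of -1.80, -2.08 and -1.95 on the log2 scale.

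Against PBS, fewer of them were called. In macrophages, 1 of the 14 was higher and 2 were lower with each cytokine. Of all genes, 6.77% were higher and 7.20% lower with rIL-4, and 2.53% and 1.66% with rIL-13. In macrophages with rIL-4, Egr2 was higher, at 1.99 ± 0.26 with an adjusted p of 0.00106, and Atf3 and Fos were lower, at -0.63 ± 0.13 with 0.00870 and -0.65 ± 0.19 with 0.0484. With rIL-13, Egr2 was higher at 1.23 ± 0.26, and Atf3 and Nr4a1 were lower at -1.12 ± 0.13 and -1.36 ± 0.33, with adjusted p of 0.0279, 0.00142 and 0.0484. The medians over the 14 were -0.34 and -0.48. In microglia only Fos was called, at -1.36 ± 0.29 with rIL-4, an adjusted p of 0.0459, where 0.887% of all genes were called lower. The part of these genes, and of the dissociation they can report, in the levels of Nfkbia, Nfkbiz and Tnfaip3 was not tested.

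**Figure D4:**
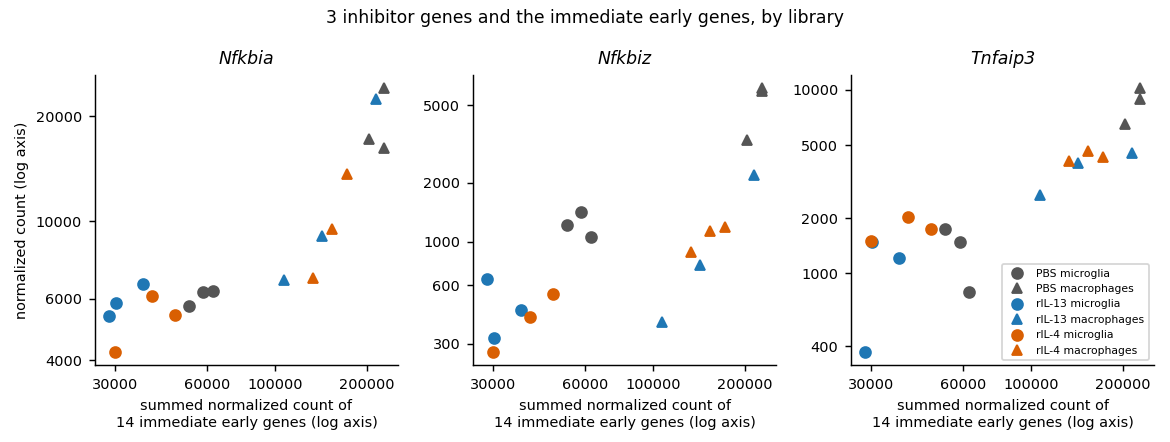
Normalized counts (log axis) of Nfkbia, Nfkbiz and Tnfaip3 against the summed normalized count of 14 immediate early genes (log axis), 1 point a library, circles for microglia and triangles for macrophages. The PBS macrophages, with sums of 203350 to 228474, are at the upper right, and rIL-13 mouse 6, with a sum of 214687, lies beside them for Nfkbia but at 2193 for Nfkbiz and 4505 for Tnfaip3.

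Of 34 textbook targets of NF-kB, 32 were tested in these fits. In macrophages with rIL-4, 10 were called lower and 0 higher, against 7.20% of all genes called lower, and the median log2 fold change was -0.91 where all genes had 0.02. The 4 of lowest p were Bcl2l1, a survival gene, at -1.06 ± 0.14 with an adjusted p of 0.00121, Cxcl10, a chemokine, at -3.30 ± 0.47 with 0.00154, Icam1, an adhesion molecule, with 0.00170, and Tnf at -2.20 ± 0.37 with 0.00356. With rIL-13, 5 were lower and 0 higher, against 1.66% of all genes called lower, with a median of -0.43. The summed level of the list was 63004, 170624 and 69841 normalized counts in rIL-13 mice 5, 6 and 7 and 121984 to 164271 with PBS, so that mouse 6, the library with the highest neutrophil markers, lay above all PBS libraries. The genes called included Plau, which encodes urokinase, at -2.02 ± 0.25 with an adjusted p of 0.00201, Cxcl10 at -3.15 ± 0.47 with 0.00551, Il1a at -1.34 ± 0.23 with 0.00937 and Tnf at -2.07 ± 0.37 with 0.0122.

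In microglia with rIL-4, 3 targets were lower and 2 higher, where 0.887% of all genes were called lower and 1.33% higher. Tnf was at -2.37 ± 0.40 with an adjusted p of 0.0192, Marcksl1 at -1.76 ± 0.30 with 0.0199 and the chemokine Ccl4 at -1.43 ± 0.27 with 0.0298. The survival gene Bcl2a1b, which has near-identical copies that can share its reads, was higher at 1.22 ± 0.22 with 0.0245. With rIL-13, Ccl4 at -2.44 ± 0.28, Tnf at -2.98 ± 0.41 and the chemokine Ccl3 at -2.36 ± 0.38 were lower and 0 higher, with adjusted p of 0.00778, 0.0156 and 0.0408, where 0.0835% of all genes were called lower. The medians were -0.17 and -0.08, close to the -0.06 and 0.00 of all genes. Tnf was thus lower than with PBS in all 4 comparisons, which use the same PBS libraries within a cell type.

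**Figure D5:**
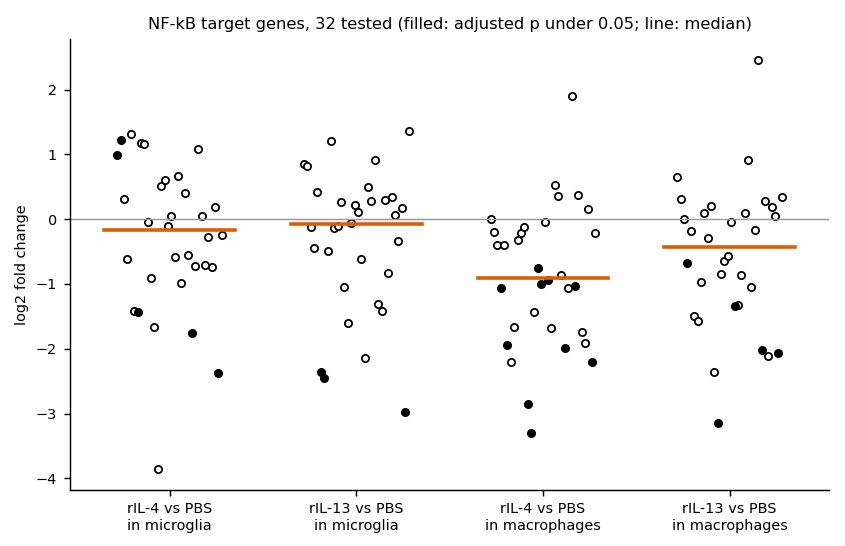
Log2 fold changes against PBS (y axis) of the 32 tested NF-kB target genes in 4 comparisons (x axis), 1 point a gene; filled points have an adjusted p under 0.05 and lines are medians. The median lies at -0.91 with rIL-4 and -0.43 with rIL-13 in macrophages, and at -0.17 and -0.08 in microglia.

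Of the receptors upstream, Tlr2, which senses bacterial lipoproteins, was lower under both cytokines in microglia, rIL-4 first, at -2.48 ± 0.33 and -2.10 ± 0.33 with adjusted p of 0.00735 and 0.0331, and in macrophages, at -1.49 ± 0.18 and -1.09 ± 0.17 with 0.000543 and 0.00763. Il1r1, the signalling receptor of IL-1, was higher in macrophages at 3.24 ± 0.50 with rIL-4 and 2.13 ± 0.48 with rIL-13, with adjusted p of 0.00220 and 0.0375, and in microglia at 1.50 ± 0.25 with rIL-13 and 0.0471. Of 10 receptors tested, 2 were higher and 2 lower in macrophages with rIL-4, 1 and 1 with rIL-13, 0 and 1 in microglia with rIL-4, and 1 and 1 with rIL-13. Of all genes in macrophages, 6.77% were higher and 7.20% lower with rIL-4, and 2.53% and 1.66% with rIL-13, and in microglia 1.33% and 0.887% with rIL-4 and 0.283% and 0.0835% with rIL-13. Tlr4, at 0.80 ± 0.19, and Tnfrsf11a, at -0.57 ± 0.15, were the others called in rIL-4 macrophages.

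Of 28 kinases and adaptors that carry the signal, 3 were called in macrophages with rIL-4 and 1 with rIL-13, near the 14.0% and 4.19% of all genes. Traf5 was higher in macrophages, at 1.24 ± 0.21 with rIL-4 and 0.96 ± 0.21 with rIL-13, with adjusted p of 0.00358 and 0.0321. Irak2 and Irak3 were lower with rIL-4, at -0.82 ± 0.18 with 0.0126 and -0.55 ± 0.13 with 0.0219. In microglia edgeR called 0 of the 28 with rIL-4, where 5 had an unadjusted p under 0.05, and 0 with rIL-13, where 1 had, beside 16.4% and 7.76% of all genes. Of 15 other inhibitors and partners of A20, Nfkbid, a further nuclear inhibitor of the family, was lower in macrophages with rIL-4 at -1.25 ± 0.26 and with rIL-13 at -1.49 ± 0.26, with adjusted p of 0.0106 and 0.0111. Tnip3, at 1.74 ± 0.41, was higher with rIL-4, and Tnip1 and Pdlim2 were lower, at -0.73 ± 0.18 and -0.87 ± 0.22, with adjusted p of 0.0196, 0.0225 and 0.0242.

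Between the cell types after PBS, 13 of the 28 kinases and adaptors were lower in microglia and 0 higher, where 16.3% of all genes were called lower and 24.5% higher. The lowest p were those of Irak2 at -1.85 ± 0.15 with an adjusted p of 3.96e-05 and Ikbke at -1.76 ± 0.18 with 0.000127. Of the 15 other inhibitors, 5 were lower and 0 higher, among them Zc3h12a at -2.26 ± 0.45 and Nfkbid at -1.77 ± 0.42, with adjusted p of 0.00391 and 0.00918. Of the 32 targets, 16 were lower, led by Il1b at -4.51 ± 0.26, and 7 higher, led by Vcam1 at 5.17 ± 0.28, with adjusted p of 7.86e-06 and 6.01e-06. The count of higher targets is near the share of all genes. Vcam1 is also made by endothelial cells and fibroblasts. The summed level of 6 endothelial markers was 28721 to 63462 normalized counts in PBS microglia against 1962 to 2534 in PBS macrophages, and that of 8 fibroblast and pericyte markers was 91978 to 128724 against 185 to 329. Their part in the cell type differences was not tested.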

How the data were processed

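The authors sequenced SMART-seq2 libraries, which carry no molecular identifiers or strand, and aligned them to GRCm38 with STAR 2.5.3a. They deposited the expected counts of RSEM 1.3.0 per gene as whole numbers, without normalization. Members were taken by symbol. The members, the gene lists and the tests were chosen with earlier results of these data known.

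Differential expression was tested with the quasi-likelihood test of edgeR 4.0.16 (R 4.3.3) after TMM normalization and filterByExpr. The 9 libraries of a cell type entered the cytokine comparisons, the 6 of a treatment the cell type comparisons, and all 18 the interactions. Benjamini-Hochberg adjustment ran over all genes tested, with a threshold of 0.05, and the SE was derived from the F statistic. Mice within a group are the replicates. Normalized counts are counts over the size factors of DESeq2 1.42.0 for all 18 libraries. TPM were computed from exon lengths of GENCODE M21, which held 53274 of the 53465 gene IDs. Without strand, reads of Nfkb2 cannot be told from those of Psd and AC114539.1, nor reads of Bcl3 from those of Gm16175, whose exons overlap theirs. The test was checked on simulated counts. Genes named from a list are the called ones of lowest p. Alternatives were DESeq2's size factors or Wald test, other filters, other sets of libraries and leaving out each library. The 2 cell types of a mouse came from the same cord, so the mouse number pairs them. The correlation of their deviations from the group means was 0.0348 to 0.132 over 12284 genes. No libraries were identical, with 0 such pairs, and 0 columns were left unused.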

Additional observations from a re-analysis of the deposited data

How the results depend on the processing

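By edgeR unless stated, with counts of the 10 genes that passed an adjusted p of 0.05. With rIL-4 against PBS in microglia, the reported count is 0. It was 1 with DESeq2's Wald test, 1 with a mean of at least 50 counts and 1 with the 6 compared libraries. Of all genes, these fits called 1215 of 15566, 393 of 12699 and 418 of 14654, and the reported fit 345 of 15566. With rIL-13 against PBS in microglia, DESeq2 called 1 member and 322 of all 15566 genes, where the reported fit called 57 genes. In macrophages with rIL-13, the count was 1 with the 6 compared libraries and 1 with all 18 libraries, where 2 were reported. Of all genes, these fits called 523 of 13020 and 257 of 16535, and the reported fit 570 of 13606. Between rIL-4 and rIL-13 in macrophages, the count was 1 with DESeq2 and 1 with no filter. DESeq2 called 3.09% of all genes and the reported fit 0.250%. Between the cell types after rIL-13 the count was 2 with DESeq2 and 4 with all 18 libraries. DESeq2 called 33.1% of all genes and the reported fit 26.7%. Leaving out 1 library gave 0 to 2 genes for rIL-4 and 0 to 3 for rIL-13 against PBS in macrophages, and 0 to 2 after rIL-13 and 1 to 4 after rIL-4 between the cell types, while 5 to 7 were called after PBS and 0 in microglia with either cytokine. Of all genes, the fits that left out 1 library called 1041 to 1614 for rIL-4 and 199 to 529 for rIL-13 against PBS in macrophages. In microglia they called 75 to 269 for rIL-4 and 22 to 51 for rIL-13. The cause of the shifts between fits was not tested.

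With the mouse as a replicate block, the cell types differed in 6 genes after PBS, 1 after rIL-13 and 3 after rIL-4, where Bcl3 lost its call. It changed no other call, and the interactions stayed at 0.

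Of 363 alternative fits of single genes, 307 kept direction and side of the threshold, 39 fell below it and 17 rose past it, and 0 changed sign. With 3 mice a group, calls near the threshold turn on single libraries. The lowest value of any member was 148 normalized counts, so that none was near the limit of detection.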

Other observations

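Members were also compared by their pattern over the 18 libraries, on log2(normalized count + 1) with the mean of each cell type removed. These correlations are descriptions, and the points share treatment groups, mice and normalization. The highest r over the 18 libraries were among the inhibitors Nfkbia, Nfkbie and Nfkbiz and for Relb with Nfkbie, with Pearson's r of 0.77 between Nfkbia and Nfkbiz (Spearman's rho 0.77), 0.77 between Nfkbie and Nfkbiz (rho 0.71) and 0.70 between Nfkbia and Nfkbie (rho 0.62). Without the 2 libraries farthest from the median of the first gene, r was 0.70, 0.66 and 0.58. Within the 9 macrophage libraries r was 0.86, 0.89 and 0.92, and within the 9 microglia libraries 0.47, 0.55 and 0.11. The highest r within the macrophage libraries was 0.96, between Nfkbiz and Tnfaip3, which had 0.44 over the 18 libraries and -0.17 within the microglia libraries. Relb and Nfkbie had r of 0.72, and Rela and Tnfaip3 0.61. Nfkb2 and Tnfaip3 had the lowest r, -0.46, which was -0.12 without the 2 farthest libraries.

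Among the 12192 genes with a mean of at least 50 counts, the 3 most like Nfkbiz were Tnf, Cdk14 and Ccrl2, at r of 0.90, 0.89 and 0.88. Those most like Nfkbia were Smox, Tpm3 and Id1, at 0.91, 0.88 and 0.88. Tnfaip3 was most like Nuak2, Dpep2 and Mphosph8, at 0.86, 0.85 and 0.82, and Nfkb1 was most like Socs5, Hs3st1 and Arap2, at 0.78, 0.77 and 0.76. Rel was most like Zfp740, Tpcn1 and Cul4b, at 0.92, 0.83 and 0.79.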
